A study of Rattus norvegicus with 14 samples.

Results

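The skin of sham-exposed hairless rats was described from 8 of the 14 samples of the series, chosen because their treatment label named them as sham. Each sample was the skin of 1 male CD hairless rat, hybridised to 1 one-colour Agilent expression array. The sham animals shared the schedule of 3 h per day, 3 days per week for 5.5 months with the other 6 animals, whose 94 GHz exposure they did not receive and whose arrays were not analysed here. The protocol speaks of 30 rats housed by 2 at 22 °C on a 12 h light cycle. The age of the rats, the body site of the biopsies and the cage mates among them are not stated in the sources at hand. Biopsies of 15 to 20 mg were homogenised whole, so every layer they held gave RNA to 1 extract, of which 0.1 µg was labelled with the dye Cy3. In such bulk samples, fewer cells of a type and less RNA per cell cannot be told apart.

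Skin is built in layers. Basal keratinocytes divide on the basement membrane, and their progeny move outward, switch keratins and build the cornified envelope that seals the surface. Below lies the dermis of collagen and elastic fibres, with hair follicles and their sebaceous glands, then fat and a sheet of striated muscle, the panniculus carnosus, which rodents keep under most of the body skin. Hairless rats form follicles but keep little hair, and a follicle makes hair keratins chiefly during its growth phase, anagen.

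The signal of a gene is given as log2 of its brightest probe's background-subtracted intensity minus the 75th percentile of its array, so that a value of 0 is the 75th percentile and 1 unit is a 2-fold step. A probe was kept when it stood well above background on at least 4 of the 8 arrays, which left 21031 of 30367 probes and 18620 genes, 11313 of them with a symbol. No spot was saturated, and between 64.8% and 73.6% of probes stood well above background on an array. Sham animal 6 stood apart. Its 75th percentile was 804.5 intensity units, against 1350 to 1967 in the other 7 animals. Its values deviated from the gene means by a median of 0.335 log2 units, against 0.106 to 0.150 in the others, and it held the highest value of 33.5% and the lowest of 29.3% of genes. Across genes, the 28 pairs of arrays correlated at 0.974 to 0.995, and the closest pair was animals 2 and 3. Genes are not independent replicates, and these correlations describe the arrays only. The main spreads are therefore given with and without sham animal 6.

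The brightest genes with a symbol were mostly those of ribosomal proteins, with some of the outer epidermis. Probes bind their targets with unlike strength, so the order is one of array signal and not of mRNA abundance, and no fold between genes is given. Gene means over the 8 animals ran from -6.84 to 8.58, with a median of -1.45. The summed signal was concentrated in few genes: the top 20 held 6.02% ± 0.49 of it, the top 100 held 20.5% ± 1.5 and the top 1000 held 71.2% ± 3.4 (SD, n = 8). Of the top 100 genes, 45 had a symbol. Among these, 29 encoded ribosomal proteins, 4 belonged to the list of the spinous and cornified epidermis, 2 were collagen chains and 1 was a basal keratinocyte gene.

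**Figure D1:**
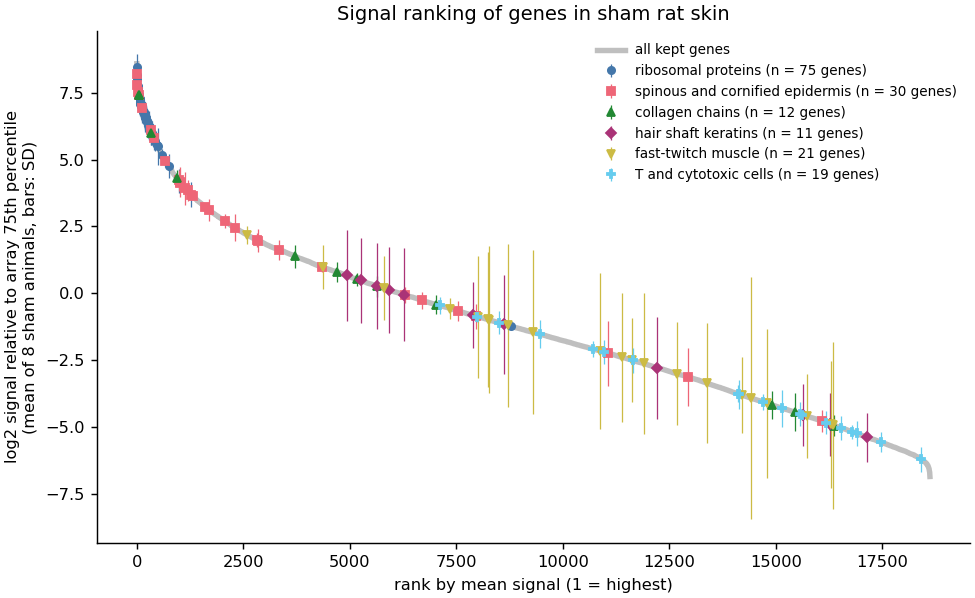
Mean log2 signal of each kept gene over 8 sham animals (vertical axis, relative to the array's 75th percentile) against its rank (horizontal axis), with genes of 6 lists marked and their SD between animals as bars. Ribosomal and epidermal genes sit at the left, while the bars of the hair shaft and fast-twitch muscle lists are the longest.

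Of the 20 symbols with the highest signal, 13 encoded ribosomal proteins, the structural parts of the ribosome. Rpl41, a protein of the large ribosomal subunit, was the highest of them and ranked 2 of all genes, with a lowest value of 8.09, a median of 8.34 and a highest of 9.53. Rplp0, the stalk protein often used as a reference gene, ranked 8 and ran from 7.76 through a median of 8.02 to 9.09. Both were highest in sham animal 6, as were 74 of the 75 kept ribosomal genes, against 33.5% of all genes. That share is over genes of all levels, while 74 of the 75 lay in the top 10% of levels. The list score of animal 6 depended on the scaling, as given below. The median level of the list stood at the 99.2nd percentile of all genes.

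The other genes of the top 20 included products of the differentiating epidermis. Lgals7, a galectin of stratified epithelia, ranked 6 and ran from 7.95 through 8.08 to 9.01. Cst6, a cysteine protease inhibitor of the cornifying layers, ranked 15 and ran from 7.46 through 7.69 to 8.60. Krt1, the keratin of the spinous layer, ranked 34 and ran from 7.14 in animal 2 through 7.53 to 7.92 in animal 1. Fabp5, the epidermal fatty acid binding protein, ranked 12 and ran from 7.70 through 7.83 to 8.51. Ceacam9, Fam25a and Stfa3, a stefin that inhibits cysteine proteases, were the remaining members of the top 20, with means of 7.76, 7.69 and 7.52. Sham animal 6 was the highest for Lgals7, Cst6, Fabp5, Ceacam9, Fam25a and Stfa3, but not for Krt1. No probe was matched to Krt10, the partner of Krt1.

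All 30 genes on the array from the list of the spinous and cornified epidermis were kept, 17 of them in the top 10% of levels. Their median SD was 0.349, and 2 had an SD over 1. Lypd3, an anchored surface protein of upper keratinocytes, varied little and ran from 5.98 through 6.11 to 6.19. Spink5, the inhibitor that restrains the peptidases of the skin surface, varied as little, from 3.56 through 3.60 to 3.73. Lce1e, a late cornified envelope protein, spread further, from 3.05 in animal 4 through 3.87 to 5.08 in animal 6. The 2 exceptions were the keratins Krt77, which ran from -4.27 in animal 6 through -2.28 to 0.01 in animal 7, and Krt2, which ran from -4.67 in animal 5 through -2.80 to -1.59 in animal 4. Both stood below the median level of all genes.

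The basal layer was bright. All 10 genes of the basal list on the array were kept, with a median level at the 93.1st percentile and a median SD of 0.201, against 0.248 over all genes. Krt14, the main keratin of basal cells, ranked 90 and ran from 6.68 through 7.15 to 7.27. Krt5, its partner, ranked 588 and ran from 4.22 through 5.30 to 5.44. Krt15, a keratin of basal and bulge cells, ran from 5.79 through 6.22 to 6.29. Sham animal 6 had the lowest value of all 3 keratins and of 7 of the 10 genes, against 29.3% of all genes. The mean deviation of the list's genes in an animal, its list score, was -0.40 in animal 6 and between -0.03 and 0.17 in the other 7. The SD of the score was 0.176 over the 8 animals and 0.0784 without animal 6.

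Genes of the sebaceous gland were bright. Their list covers the lipid synthesis of sebocytes, the gland cells that burst to release sebum. All 21 genes on the array were kept, 11 in the top 10% of levels. None had an SD over 1, but only 1.75% of all genes did, so this count does not set the list apart. Their median SD was 0.258, against 0.248 over all genes. The list score, a mean over genes that deviated both ways, had an SD of 0.0817 over the 8 animals, the smallest of the 39 lists, and of 0.0853 without animal 6, when it was not the smallest. Scd, the fatty acid desaturase of sebocytes, ran from 4.76 in animal 5 through 5.27 to 6.03 in animal 6. Acsbg1, an acyl-CoA synthetase, ran from 5.20 through 5.28 to 5.48. Awat1, a wax ester synthase, ran from 4.40 through 4.75 to 5.16. Cidea, a lipid droplet protein that sebaceous glands share with brown fat, ranked 370 and ran from 5.66 through 5.87 to 6.34. Ucp1, the uncoupling protein that defines brown fat, was not well above background on any array. The 19 kept genes of cholesterol synthesis had a median level at the 86.7th percentile, led by Hmgcs1, the synthase before the rate-limiting step, from 6.36 through 6.59 to 6.78.

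In the dermis, fibrillar collagen was bright. Col1a1 and Col1a2, the chains of type I collagen, ranked 47 and 44. Col1a1 ran from 6.96 through 7.43 to 7.92, and Col1a2 from 7.03 through 7.30 to 8.14. Col3a1, the chain of type III collagen, ran from 5.45 in animal 4 through 6.12 to 6.35 in animal 6. These 3 genes had SDs of 0.33, 0.38 and 0.33, above the median of 0.248 of all genes. Sparc, a collagen-binding matrix protein, ran from 6.72 through 7.12 to 7.33, and Dcn, the proteoglycan decorin, from 5.15 through 5.59 to 5.83. None of the 12 collagen genes and none of the 23 kept genes of elastic fibres and proteoglycans had an SD over 1. Only 1.75% of all genes did, so these counts do not set the lists apart. The median SDs of the lists were 0.373 and 0.280. Animal 4 held the lowest value of 10 of the 23 genes of elastic fibres and proteoglycans, against 8.14% of all genes.

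Adipocyte genes were measured at middle levels. Cfd, the adipocyte complement factor adipsin, ran from 3.92 through 4.72 to 5.11. Adipoq, the hormone adiponectin, ran from -0.55 through 0.82 to 1.36. Fabp4, the adipocyte fatty acid binding protein, ran from -0.05 through 1.29 to 1.68. Sham animal 6 was the lowest for all 3, and for 13 of the 18 kept genes of the list, against 29.3% of all genes. Its score was -0.73, and its score on the endothelial list was -0.74, where it was the lowest for 14 of 19 genes. The SD of the adipocyte score was 0.334 over the 8 animals and 0.170 without animal 6, and that of the endothelial score was 0.311 and 0.0973. Lep, the hormone leptin, was not kept.

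Immune cell genes were found from the bright to the dim end of the ranking. The 25 kept genes of macrophages and antigen presentation had a median level at the 74.1st percentile, with Lyz2, a macrophage lysozyme, from 4.21 through 4.86 to 5.25 and Cd74, the invariant chain, from 3.61 through 3.87 to 4.05. No gene of the list had an SD over 1, but only 1.75% of all genes did, so this count does not set it apart. The median SD of its genes was 0.282, against 0.248 over all genes, and the SD of the score was 0.117. Genes of T and cytotoxic cells were mostly dim, with a median level at the 21.0th percentile. The brightest 2, Cd7 and Ptprc, stood at the 61.8th and 57.1st percentiles. Cd3e, a chain of the T cell receptor complex, ran from -5.00 through -4.59 to -3.79. For neutrophils, 4 of 11 genes on the array were kept, and Elane, the neutrophil elastase, and Ltf, lactoferrin, were not. Melanocyte genes stood at a median of the 18.0th percentile. Tyr, the enzyme that makes melanin, ran from -6.67 through -5.69 to -4.64. The brightest 2 of the list, Mitf and Mlana, stood at the 74.1st and 70.5th percentiles.

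Lists of brain, vomeronasal and liver genes were added because the biopsies should not hold these tissues. Whether single members are expressed in skin or its muscle was not tested. Of 14 neuronal and glial genes on the array, 2 were kept and 9 were never well above background, among them Snap25. The 2 kept, Aldh1l1 and Aqp4, had means of 0.17 and -4.34, at the 68.7th and 18.2nd percentiles. Both were well above background on 8 arrays. Of 113 vomeronasal receptor genes, 21 were kept, at a median level of the 8.8th percentile, and 81 were never well above background. Members of this family resemble each other closely, so their probes can share targets, and the same holds for hair keratins, keratin-associated proteins, globins and major histocompatibility genes. Of 20 liver genes, 8 were kept. Alb, serum albumin, ran from -6.31 through -5.30 to -4.73. Not all members were dim. The brightest kept liver genes, Serpina1 and Cyp2c11, had means of 0.88 and -1.58, at the 75.6th and 48.5th percentiles. The brightest vomeronasal gene, Vom2r34, had a mean of 1.91, at the 84.3rd percentile.

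The spread between animals was small for most genes. The SD over the 8 animals had a median of 0.248 log2 units with 0.106 at its 10th and 0.544 at its 90th percentile. Noise between spots could be measured for the 11438 genes whose probe had several spots on an array. The spots of 1 probe on 1 array had a median SD of 0.0878, against 0.223 between animals for the same genes, and the SD between animals was the larger for 87.0% of them. The spot SD leaves out differences of extraction, labelling and hybridisation between arrays, which are part of the SD between animals. When genes were split by level into 10 equal groups, the median SD between animals was 0.453 in the lowest group, 0.169 in the second highest and 0.318 in the highest. Without sham animal 6, the median SD of all genes was 0.171.

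**Figure D2:**
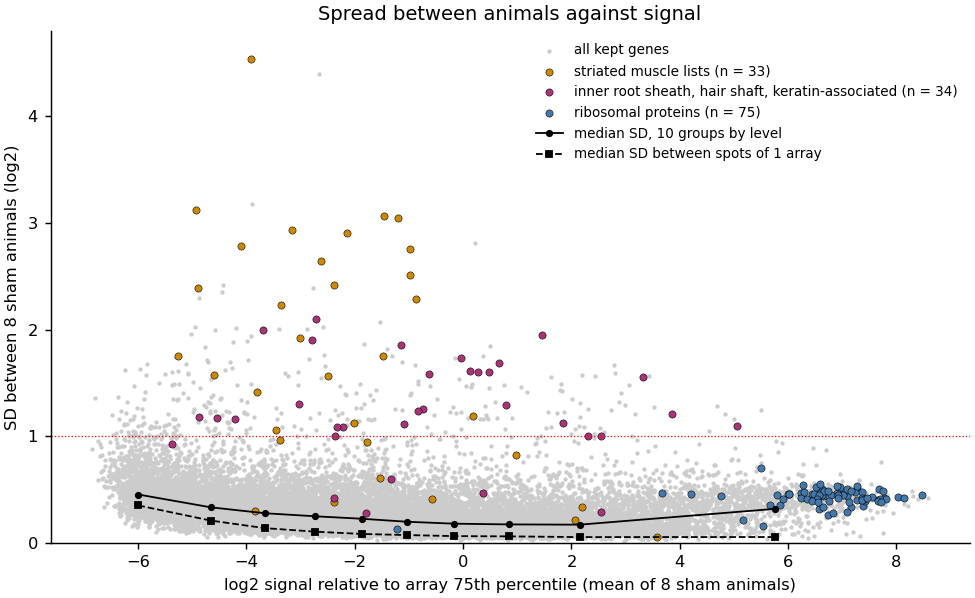
SD of the log2 signal between 8 sham animals (vertical axis) against the mean log2 signal (horizontal axis) for each kept gene, with the median in each of 10 equal groups by level for animals (solid line) and for spots of 1 array (dashed line). Most of the striated muscle and hair follicle genes stand far above the median of 0.248, though Atp2a2 (0.05) and Tpm3 (0.21) lie below it. The dotted line marks an SD of 1.

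Some bright genes hardly differed between animals. The smallest SDs among symbols of the top 25% of levels were those of Mbd2, a reader of methylated DNA, and Nit1, an amidase, at 0.02 each. Next came Hnrnpab, Nptn, Strap, Rab1a, Emc3, Ube2j2 and Trappc13 at 0.03 and Sae1 at 0.04. These values are those of the brightest probe: the other kept probe of Hnrnpab had an SD of 0.10, and those of Nptn had SDs of 0.28 to 0.32. Emc3, a subunit of the complex that inserts proteins into the endoplasmic reticulum membrane, ran from 1.87 through 1.92 to 1.97. Genes often used as references had larger SDs than these, which were picked as the smallest. The median SD of the reference list was 0.200, against 0.248 over all genes. Gapdh, the glycolytic enzyme, had an SD of 0.16 and ran from 3.83 through 4.04 to 4.34. Actb, the cytoskeletal actin, had an SD of 0.29 and ran from 4.40 in animal 6 through 5.17 to 5.38 in animal 8, with an SD of 0.0887 without animal 6. Rpl13a had an SD of 0.51, and of 0.30 without animal 6. Pgk1 and Hprt1, both of the same reference list, had the smallest SDs of that list at 0.07 each.

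An SD over 1 was found for 325 genes, which is 1.75% of the 18620. Of these, 149 had a symbol, 185 were well above background on all 8 arrays and 149 lay in the lowest 25% of levels. Without sham animal 6 the number was 312, of which 284 were shared with the 325. The gene lists of striated muscle held 23 of the 325 and those of the hair follicle held 28, while 257 were in no list. Since this cut-off was chosen by the same values, the counts are a description, with no test. Among the 20 symbols with the largest SD, 14 were in the muscle lists and 1 in the hair lists.

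Striated muscle genes varied most, and 2 animals were high. Of the 21 kept genes of the fast-twitch muscle list, 18 had an SD over 1, and animals 5 and 7 held the 2 highest values of 19. Over all genes these shares were 1.75% and 2.4%. Tnnc2, the calcium-binding troponin of fast fibres, was well above background on all 8 arrays and had a lowest value of -4.16, a median of -1.72 and a highest of 3.85. Animals 5 and 7 stood at 3.85 and 3.01, and the other 6 lay between -4.16 and -1.46, so the difference between the lowest and the highest animal was 8.01 log2 units. Ckm, the muscle creatine kinase, stood at 2.60 in animal 5 and 1.77 in animal 7. In the other 6 animals it lay between -5.21 and -2.28. Atp2a1, the calcium pump of fast fibres, ran from -3.26 through -1.89 to 3.67, and Acta1, the skeletal actin, from -4.64 through -3.74 to 1.90, with the same pair highest. Myh1, a fast myosin heavy chain, had the largest SD of all symbols, 4.54, but was well above background on 5 arrays, so its lowest values are at the level of background.

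The other 6 animals differed among themselves in the same fast-fibre genes. Tnnc2, Myl11, the regulatory light chain, and Tnni2, the inhibitory troponin, were at -1.87, -2.14 and -1.74 in animal 1 and at -1.56, -1.65 and -1.48 in animal 4. In animals 2, 3 and 8, they lay between -4.41 and -3.05. The score of the fast-twitch list was 3.63 in animal 5, 2.92 in animal 7, between -0.57 and -0.20 in animals 1, 4 and 6, and between -1.75 and -1.73 in animals 2, 3 and 8. Its SD was 2.12 over the 8 animals and 2.29 without animal 6.

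Slow-fibre and oxidative genes followed, with a score SD of 0.887 against 2.12 for the fast-twitch list. Of 12 kept, 5 had an SD over 1, against 1.75% of all genes. Animals 5 and 7 held the 2 highest values of 7, against 2.4% of all genes. Cox6a2, also of the oxidative phosphorylation list, had the largest SD of these genes at 2.93. It ran from -6.205 through -3.79 to 1.57 and was well above background on 7 arrays. Mb, the oxygen store myoglobin, ran from -3.07 through -2.09 to 1.61. Myh7, the slow myosin heavy chain, ran from -4.27 through -3.85 to -1.68. Atp2a2, the calcium pump that many cell types express, ran only from 3.49 through 3.59 to 3.66. Myl2, Tnni1 and Csrp3 of this list were not kept, nor were Myh2, Myh4 and Smpx of the fast-twitch list. With no filter on dim probes, the score SDs were 1.06 for slow-twitch and 2.08 for fast-twitch muscle. Outside the lists, the same pair was highest for Myh8, a perinatal myosin, at 3.42 and 2.99. The imprinted RNA H19 stood at -0.48 and -1.24 in the pair and no higher than -4.17 in the other animals. Apobec2, a muscle deaminase-family gene chosen after its values were seen, stood at 1.12 and -0.66 in the pair and between -4.63 and -3.47 in the others. Smooth muscle genes did not share the pattern: their list score was -0.14 in animal 5 and -0.04 in animal 7. Actg2, the enteric actin, was at 1.92 in animal 5 and 1.83 in animal 7 against a median of 2.11. None of the 16 genes had an SD over 1, but only 1.75% of all genes did, so this count does not set the list apart. How much muscle each biopsy held was not measured, and its part in these values was not tested.

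**Figure D3:**
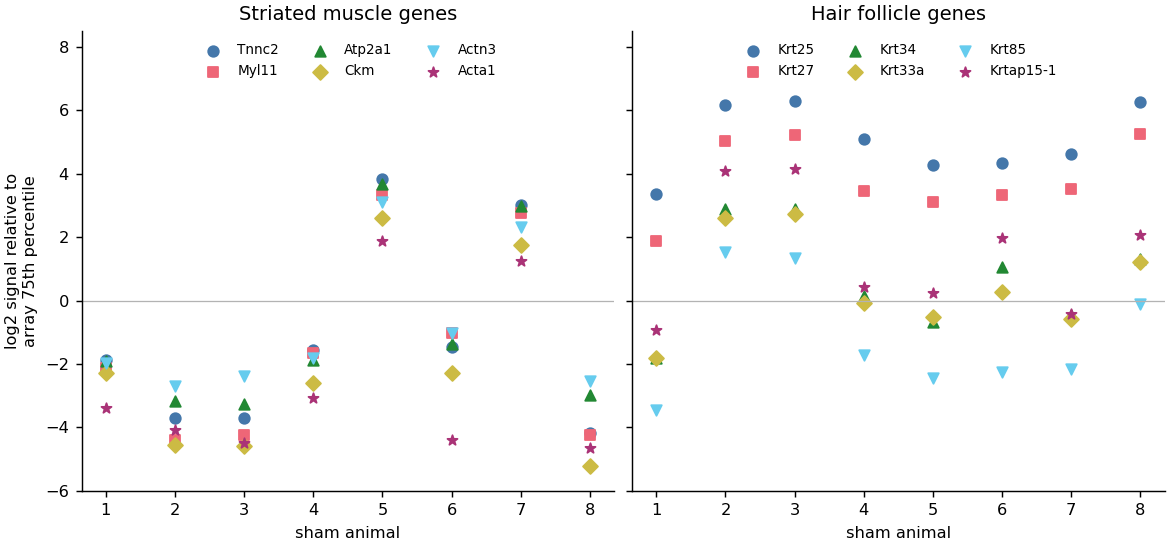
Log2 signal relative to the array's 75th percentile (vertical axis) of 6 striated muscle genes (left) and 6 hair follicle genes (right) in each of 8 sham animals (horizontal axis), 1 point per gene and animal. Muscle genes are highest in animals 5 and 7, with Tnnc2 at 3.85 and 3.01, and hair genes are highest in animals 2, 3 and 8.

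Hair follicle genes formed the other variable group, with other animals high. Of 11 kept hair shaft keratins, 10 had an SD over 1, as did 7 of 8 genes of the inner root sheath and 10 of 15 keratin-associated proteins. The share over all genes was 1.75%. Krt34, a keratin of the hair cortex, ran from -1.82 in animal 1 through 0.60 to 2.89 in animals 2 and 3. Krt85, a keratin of the hair matrix and cuticle, ran from -3.44 in animal 1 through -1.94 to 1.54 in animal 2. Krtap15-1, a keratin-associated protein of the shaft, ran from -0.94 in animal 1 through 1.21 to 4.15 in animal 3. Animals 2 and 3 held the 2 highest values of 9 of the 11 shaft keratins, against 3.28% of all genes. Animal 1 held the lowest value of 7 of these keratins, against 8.02% of all genes.

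The inner root sheath, the sleeve that moulds the growing shaft, was the brightest of the follicle lists. Krt25 ranked 632 and ran from 3.35 in animal 1 through 4.86 to 6.31 in animal 3. Krt27 ran from 1.89 in animal 1 through 3.50 to 5.25 in animal 8. Padi3, the enzyme that modifies trichohyalin in the sheath, ran from -1.18 in animal 1 through 0.50 to 2.46 in animal 3. For these genes animals 2, 3 and 8 were high together. The sheath score was 1.25, 1.08 and 1.10 in animals 2, 3 and 8, and -1.33 and -1.13 in animals 1 and 6. The shaft score was 2.07, 1.70 and 0.76 in animals 2, 3 and 8, and -1.67 in animal 1. Its SD was 1.35 over the 8 animals and 1.41 without animal 6.

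Regulators of the follicle had a median SD of 0.308, against 1.61 for the shaft keratins. Their score was 0.36, 0.47 and 0.31 in animals 2, 3 and 8, and -0.43 and -0.52 in animals 1 and 6. In animals 4, 5 and 7 it lay between -0.19 and 0.07. Animals 2 and 3 held the 2 highest values of 6 of the 16 genes, against 3.28% of all genes. Of 16 kept regulators, 1 had an SD over 1, Dlx1, a homeobox gene well above background on 4 arrays. Msx2, a homeobox regulator of hair shaft differentiation, ran from -3.25 in animal 1 through -2.32 to -1.32 in animal 2. Lef1, the partner of beta-catenin in the hair matrix, ran from -5.71 in animal 6 through -3.90 to -2.95 in animal 2. Hr, the gene named for hairless mutants, was well above background on all 8 arrays and ran from -2.14 through -1.52 to -1.39. Shh, Lgr5 and Edar were not kept. Mt4, a metallothionein of stratified epithelium from the antioxidant list, had the largest SD of its list at 1.09 and was highest in animals 2, 3 and 8 at 3.82, 3.52 and 3.05.

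**Figure D4:**
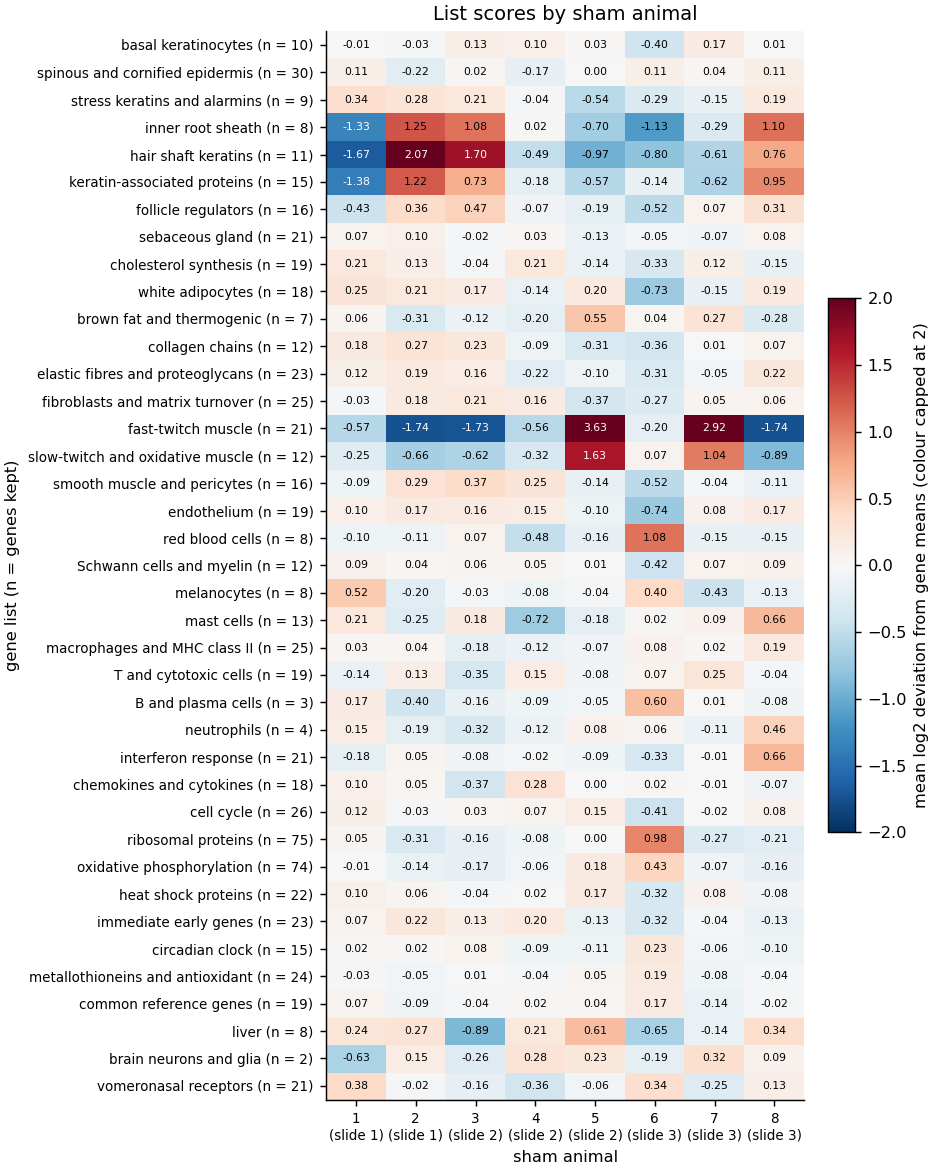
List scores, the mean over a list's kept genes of the log2 deviation from each gene's mean, for 39 gene lists (vertical axis) in each of 8 sham animals (horizontal axis, with slide), coloured from blue (low) to red (high). Fast-twitch muscle reaches 3.63 in animal 5, hair shaft keratins reach 2.07 in animal 2, and the ribosomal list reaches 0.98 in animal 6.

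Promoters of genes with large and with small spread are shown because the share with a TATA motif differed between them, which is a description with no test. The RefSeq table of build GRCr8 holds 300 bases for each of 27457 genes, and 9212 kept genes were matched. The motif TATAAA was searched on the gene's strand from 45 to 16 bases before the start. The motif CANNTG, which reads the same on both strands and is bound by the MyoD family among others, was searched in the 250 bases before the start. Below, the 100 bases before the start are written in lower case, with every TATAAA and CANNTG in capitals; the first 3 are muscle genes, the next 3 are follicle genes, with members of both kinds that lack TATAAA, and the last is one of the most even genes.

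Tnnc2, chr3:173935340-173935439, minus strand: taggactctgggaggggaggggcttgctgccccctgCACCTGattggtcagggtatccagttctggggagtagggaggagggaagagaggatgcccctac
Ckm, chr1:88189361-88189460, plus strand: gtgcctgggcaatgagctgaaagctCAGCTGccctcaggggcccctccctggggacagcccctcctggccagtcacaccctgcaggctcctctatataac
Acta1, chr19:68784195-68784294, minus strand: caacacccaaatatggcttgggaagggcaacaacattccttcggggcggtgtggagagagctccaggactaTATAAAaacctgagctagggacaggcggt
Krt34, chr10:85474502-85474601, minus strand: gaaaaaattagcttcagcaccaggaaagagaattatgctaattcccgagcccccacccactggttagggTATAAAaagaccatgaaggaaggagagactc
Krt85, chr7:134515787-134515886, minus strand: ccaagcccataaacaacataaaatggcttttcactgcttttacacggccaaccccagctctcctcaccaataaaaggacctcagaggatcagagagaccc
Krt25, chr10:84771198-84771297, minus strand: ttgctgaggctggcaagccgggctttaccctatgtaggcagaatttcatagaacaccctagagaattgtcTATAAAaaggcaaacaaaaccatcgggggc
Nit1, chr13:86305771-86305870, minus strand: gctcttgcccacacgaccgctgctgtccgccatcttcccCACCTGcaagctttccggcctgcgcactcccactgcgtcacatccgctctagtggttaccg

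The TATA motif starts 29 bases before the start in Acta1, 31 in Krt34 and 30 in Krt25. Most genes of the variable lists lack it: it was found for 2 of 9 hair shaft keratins, 2 of 8 inner root sheath genes, 5 of 15 keratin-associated proteins and 2 of 19 fast-twitch genes. Lists with 0 or 1 gene of an SD over 1 held it too: 4 of 6 red blood cell, 6 of 18 metallothionein and antioxidant, 5 of 18 fibroblast and 3 of 14 common reference genes. Other such lists did not, among them the sebaceous gland (0 of 16) and oxidative phosphorylation (0 of 67). It was found in 1.8% of all 27457 promoters and in 2.0% of the matched kept genes. When genes were split by SD into 10 equal groups, the share was 0.8% in the most even group and 5.4% in the most variable. It was 12.9% (16 of 124) for genes with an SD over 1, and 21.2% (14 of 66) for those of them well above background on all 8 arrays. In 10 equal groups by level it lay between 1.1% and 3.7%. Families such as the keratins share ancestry, so their promoters are not independent. CANNTG was found in 65.2% of all promoters and 58.3% of the matched kept genes, in 17 of 19 fast-twitch genes (89.5%) and in 11 of 11 slow-twitch genes, but also in 17 of 19 vomeronasal receptor genes. A match describes letters in a window and is no evidence of binding.

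**Figure D5:**
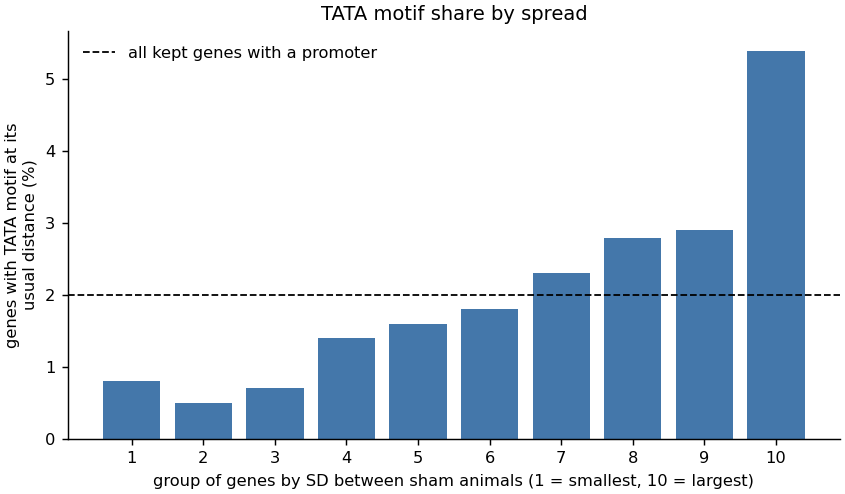
Share of genes (vertical axis, %) whose promoter holds TATAAA from 45 to 16 bases before the start, for 10 equal groups of 9212 kept genes ordered by SD between 8 sham animals (horizontal axis). The first bar stands at 0.8% and the last, for the most variable genes, at 5.4%, and the dashed line is the 2.0% of all matched kept genes.

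The ribosomal list had a median SD of 0.438, above the 0.248 of all genes, and its values in 1 animal stood apart. Rps12, a small subunit protein, stood at 9.05 in sham animal 6 and between 7.64 and 8.03 in the other 7. Rpsa, the laminin receptor of the small subunit, had the largest SD of the list at 0.70 and ran from 4.32 in animal 7 through 5.49 to 6.76 in animal 6. The spots of its probe had an SD of 0.685 within an array, and its other kept probe had an SD of 0.256 between animals. The list score was 0.98 in animal 6 and between -0.31 and 0.05 in the others. Without animal 6 the median SD of the list was 0.149. With quantile normalization in place of the 75th percentile, animal 6 was still highest, but its score was 0.0867 and the SD of the score was 0.0402 in place of 0.414. Its lower array signal moved with these values, and the part of that signal in the result was not tested.

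Globins were also high in sham animal 6. Hba-a1, an alpha globin, stood at 5.05 in animal 6 and between 2.97 and 3.52 in the other 7. Hbb, a beta globin, stood at 4.21 in animal 6 and between 2.12 and 2.78 in the others. Of 8 kept genes of the red blood cell list, 7 were highest in animal 6, against 33.5% of all genes. The list score there was 1.08 (0.95 with quantile normalization). Blood in the biopsies was not measured, and its part in this result was not tested.

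Animal 8 was high in interferon-induced genes and in mast cell genes. Of 21 kept interferon genes, 13 were highest in animal 8, against 8.99% of all genes. Isg15, a ubiquitin-like protein that interferon induces, stood at 0.20 in animal 8 against a median of -1.68. Irf7, the amplifier of the interferon response, stood at 1.14 against a median of -0.66. Rsad2, the antiviral protein viperin, stood at -1.92 against a median of -3.74. The score was 0.66 in animal 8 and between -0.33 and 0.05 in the other 7. Of 13 kept mast cell genes, 9 were highest in animal 8 and 6 were lowest in animal 4. Over all genes these shares were 8.99% and 8.14%. Tpsab1, a mast cell tryptase, ran from -3.02 in animal 4 through -1.83 to -0.84 in animal 8. Cma1, mast cell chymase, ran from -0.65 in animal 4 through 0.57 to 1.16 in animal 8. The mast cell score was 0.66 in animal 8 and -0.72 in animal 4. Animal 8 was the highest and animal 4 the lowest of this list under quantile normalization, median scaling and normexp as well.

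No gene was called different between slides. The 8 arrays lay on 3 slides, and each slide held 2 or 3 of them. Limma's F test over the slides called 0 of 18620 genes at an adjusted p under 0.05 (0% called), with a smallest adjusted p of 0.998. At an unadjusted p under 0.05 it called 308 genes, where 5% of the genes would be 931. Missing the threshold does not show that the slides were alike. The SD within slides had a median of 0.253. Animals 5 and 7 were on slides 2 and 3, and animals 2, 3 and 8 were on slides 1, 2 and 3, so neither the high muscle values nor the high hair values fell on 1 slide.

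Principal components were taken from the same gene-centred values, so they describe these animals and are no separate support. The first component held 37.6% of the variance and set sham animal 6 at 75.8, with the other 7 between -21.9 and 7.64. The second held 20.9% and set animals 5 and 7 at 37.8 and 33.7, with Myh1, Myh8 and Myl1 as its leading genes. The third held 14.6% and set animal 1 at 44.2, with the other 7 between -14.0 and 13.0. Its leading genes were Spp1, the matrix protein osteopontin, at one end and hair keratins and keratin-associated proteins at the other.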

How the data were processed

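Skin RNA of 8 sham animals was measured on 1 array each, and animals were numbered in accession order only to name them. Per the file headers, the deposited scanner files hold spot intensity on a linear scale from Agilent Feature Extraction 10.7.3.1, already background-subtracted. From each array's 62976 spots, 4259 control spots and outlier-flagged spots (437 to 550 per array) were left out. The processed signal was scaled to the 75th percentile of its array, put on the log2 scale and averaged over spots of a probe; 17 probes left without a value on some array were dropped. A probe was kept when well above background on at least 4 arrays, and of several kept probes the brightest stood for the gene. Accessions without version were matched to a RefSeq table of assembly GRCr8, which named 17998 probes (59.3%); of the 100 brightest genes, 55 had no symbol. The array design names an older assembly, so coordinates are those of the promoter table only.

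The number of arrays limits the precision, and nothing in the labels says whether cage mates are among them. SDs are over the 8 animals. The F test over slides came from limma 3.58.1 (R 4.3.3) with Benjamini-Hochberg adjustment over all genes. On simulated data it missed changes of 2-fold or less and recovered most of the larger ones tried. Other summaries used Python 3.11.15, numpy 2.4.6 and pandas 2.3.3. Principal components were taken without scaling genes.

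The authors also deposited 15168 probes as log2 values, centred per probe by a method that the labels do not state; the columns correlated at 0.9999 or above with quantile-normalized signals and at 0.9003 to 0.9935 with the scaling used here, over 15160 probes. It served as an alternative.

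The 39 lists and the members were chosen with earlier results of these data known. Genes were named by rule: the 20 symbols with the highest mean, the 20 with the largest SD, the 10 with the smallest SD in the top 25% on all 8 arrays, in each list the 2 brightest members and the 1 with the largest SD, and a fixed set of skin genes. Other genes were chosen after their values were seen. Not every gene the rule names is printed, and 3 results on outlying animals are not reported here. Alternatives covered scaling, normexp (on median spot signals, offset 50), the filter, flagged spots, the choice of probe, slide, the variance trend and leaving out each animal.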

Additional observations from a re-analysis of the deposited data

Results flagged for a closer look

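In 44 cases the highest or lowest sham animal lay far from the other 7 by Dixon's criterion at the 95% level, which sets the gap to the nearest animal against the whole range. Of the 160 named genes 36 met it, and of the 39 list scores 8 did. Chance alone gives this for about 1 in 20 groups. Sham animal 6 was the distant animal in 42 of the 44 cases, which therefore repeat 1 array and are not independent.

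Animal 6 was the high one for the following 11 ribosomal protein genes, with log2 signals there of Rpl41 (9.53), Rplp0 (9.09), Rps12 (9.05), Rpl24 (8.77), Rps23 (8.76), Rpl37a (8.88), Rpl35 (8.64), Rps29 (8.89), Rplp2 (8.63), Rpl21 (8.55) and Rps10 (8.45). It was also high for Lgals7 (9.01), Cst6 (8.60), Fam25a (8.76), Ftl1 (7.46), Cox6a1 (6.84), Fth1 (6.27), B2m (5.53), Ccl27 (4.34), Hba-a1 (5.05), Hbb (4.21) and Tef (0.79). These others are products of the epidermis, ferritin chains, globins and single genes of several lists, and the nearest of the other animals was lower by 0.39 log2 units or more. Some of this turned with the scaling: with quantile normalization the spinous and cornified score of animal 6 went from 0.11, the highest, to -0.24, the lowest, and its metallothionein and antioxidant score from 0.19 to -0.06.

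Animal 6 was the low one for Atp5f1a (5.90), Krt17 (4.49), Krt5 (4.22), Actb (4.40), Cd151 (-1.41), Mcm6 (-4.08), Tie1 (-5.08), Fbln5 (-4.98), Prx (-6.49) and Pck1 (-6.99). Krt5 and Krt17 are keratins, Tie1 is an endothelial receptor and Mcm6 is a replication helicase. Among list scores, animal 6 was distant for basal keratinocytes (-0.40), white adipocytes (-0.73), endothelium (-0.74), red blood cells (1.08), Schwann cells and myelin (-0.42), cell cycle (-0.41) and ribosomal proteins (0.98). With normexp its Schwann cell score was 0.10 and the highest of the 8 animals, while its endothelial score was -0.36 and its cell cycle score -0.22, both still the lowest. With quantile normalization its ribosomal score was 0.0867.

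In the 2 remaining cases another animal stood apart. Pdpn, podoplanin of lymphatic endothelium and other cells, was lowest in animal 4 at 1.84, where the nearest animal was at 2.10. The interferon response score was highest in animal 8 at 0.66, where the next animal was at 0.05.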

How the results depend on the processing

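No paired analysis was possible because only the sham group was analysed and its replicate numbers, given in accession order, name animals and pair none; slide was used as a block instead. Leaving out each animal in turn, the median SD ranged from 0.171 to 0.257, the number of genes with an SD over 1 from 309 to 357, the genes called between slides from 0 to 1 and the shared top 20 of the signal ranking from 19 to 20. The SD of list scores then ranged from 1.65 to 2.29 for fast-twitch and from 0.643 to 0.958 for slow-twitch muscle, from 1.14 to 1.44 for hair shaft keratins, from 0.961 to 1.12 for the inner root sheath, from 0.755 to 0.964 for keratin-associated proteins and from 0.408 to 0.561 for the liver list. Genes with an SD over 1, 325 by the main setting, numbered 150 with normexp, 185 when a probe had to be well above background on 8 of 8 arrays, 820 with no filter on dim probes and 167 in the authors' deposited values; the last and the stricter filter test fewer genes. The slide test called 1 gene with no filter and 1 gene without sham 8, by limma. The liver list score had an SD of 0.234 with normexp and 0.293 with no filter, against 0.522, and the slow-twitch score one of 0.583 in the authors' values, against 0.887. When all kept probes of a gene were averaged, 13 of the 20 top symbols were shared. The causes were not tested. Without sham animal 6, 12 of 38 list spreads moved by over 1.5 times. Quantile normalization shifted the median level by 0.43, normexp by 0.16 and median scaling by 2.62, which is set by their construction. Dim probes limit the depth: the median spot SD was 0.350 in the lowest 10% of levels and 0.0534 in the highest 10%.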

Other observations

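Animal 4 was highest for immediate early genes, transcription factors and regulators that cells switch on within minutes of a stimulus, in 7 of the 23 kept members, and for 8 of 18 chemokine and cytokine genes, against 9.65% of all genes. Fos ran from -3.52 in animal 6 through -1.88 to -0.17 in animal 4, and was the gene with the largest SD of its list at 1.26. Dusp1, a phosphatase of the same early response, ran from -3.76 in animal 6 through -1.92 to -1.09 in animal 4. Egr1 ran from -0.76 in animal 6 through 0.31 to 0.98 in animal 4. Ccl3 ran from -3.58 through -2.69 to -1.33, and Tnf, the cytokine, from -2.75 through -1.77 to -0.89, both highest in animal 4. Mmp9, a gelatinase, stood at -3.26 there, against a median of -4.37. The whole early-gene score was 0.20 in animal 4 and 0.22 in animal 2, so animal 4 was not the highest for the list as a whole. With normexp the order turned, with 0.19 in animal 4 and 0.11 in animal 2. Il6 and Ptgs2 were not kept.

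Some genes outside the lists, chosen after their values were seen, were high in animals that muscle and hair did not single out. Spp1 stood at 0.75 in animal 1 and 0.10 in animal 4, and at -1.999 or less in the other 6. S100a9, an alarmin of stressed keratinocytes and neutrophils, was at 3.88 in animal 1 and 3.19 in animal 4 against a median of 1.21, while S100a8, its partner, was at 4.40 and 4.08 there, against a median of 3.88 and 4.51 in animal 6. Cts7, a cathepsin, stood at -0.64, -0.48 and -0.60 in animals 2, 3 and 6 and at -3.44 or less in the other 5. Gprc5d, a receptor known from hair keratinising cells, was highest in animals 2 and 3 at 0.30 and 0.39 and lowest in animal 1 at -3.58.

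The liver list held a pair of fibrinogen chains with a wide spread. Fga ran from -6.34 in animal 3 through -2.93 to -1.60 in animal 1, and Fgg from -8.58 in animal 3 through -4.57 to -2.27 in animal 5. They were well above background on 7 and 6 arrays. None of 15 kept clock genes had an SD over 1, but only 1.75% of all genes did, so this count does not set them apart. Their median SD was 0.223. Dbp, an output gene of the clock, had the largest SD of these at 0.54 and ran from 1.38 through 1.60 to 2.99 in animal 6, with an SD of 0.28 without animal 6.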
